A study of Mus musculus with 6 samples.

Results

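The sarcomere genes described here are 10 genes for the titin and nebulin filaments, the Z disc, the M band and the myosin-binding proteins of muscle: TTN, NEB, ACTN2, LDB3, TCAP, CSRP3, PDLIM3, MYOM1, MYBPC1 and MYBPH. They were chosen by symbol, with earlier results of these data known, so counts of them set against all probe sets are descriptive only. Each probe set of the array whose single annotated symbol is one of them was taken, which gave 18 probe sets for the 10 genes, of 22283 probe sets and 11963 singly annotated genes on the array. MYBPH, NEB and TTN were called higher in myotubes. TTN was 4.10-fold higher on the scale used for the tests, and MYBPH and NEB, not above background in myoblasts, were at least 3.78-fold and 3.49-fold higher. Against myoblast array 1 alone, the log2 changes of TTN, NEB and MYBPH were 1.24, 1.92 and 2.47. With all arrays they were 2.03, 2.05 and 2.65. The former fit takes the laboratory series, described below, as a block. In it MYBPH kept its call, and TTN and NEB did not. The other 7 genes were either not called or too dim for the test.

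The sarcomere is the repeating contractile unit of striated muscle. The Z disc anchors the actin thin filaments of neighbouring sarcomeres, and the M band links the myosin thick filaments at the centre. Titin is a giant spring protein that spans from Z disc to M band, nebulin runs along the thin filament in skeletal muscle, and both are laid down as myoblasts fuse into myotubes and assemble myofibrils.

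The study set 3 arrays of myotubes against 3 of myoblasts of C2C12, a line of mouse muscle precursor cells that divide as myoblasts and can fuse into myotubes. The labels name no treatment or medium. The myotube titles carry codes D1 to D3 whose meaning is not given; they were read as array numbers, and whether they stand for days is not settled. All 6 labels give the same source, muscle myoblast. The array design, HG-U133A, targets human transcripts although mouse is the labelled organism. The species of the RNA is thus not settled, and genes carry the symbols of the human design. The title of myoblast array 3 names growth and no stage, and its group rests on its description. That description numbers only myoblasts 1 and 2. For the myoblast arrays, the numbers in the run records differ from those in the titles, which were used; the record of array 3 names myoblast 2. Whether the arrays of each group stand for separate cultures is not stated, and p-values then cover only the spread between arrays, which may be technical.

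Each value is a MAS5 signal, a linear brightness per probe set, scaled to about the same average on all arrays. The small number of arrays limits precision. The background level of an array was taken as the highest signal among 27 unspiked bacterial control probe sets. It was 731, 1040 and 520 on myotube arrays 1, 2 and 3, against 920, 326 and 252 on myoblast arrays 1, 2 and 3. The geometric mean of the spike-in controls was 71439, 33504 and 12320 on the myotube arrays, against 48119, 3539 and 4275 on the myoblast arrays. It was thus lowest on myoblast arrays 2 and 3, and its part in the results was not tested. The myotube arrays had a chip lot and a scan day to themselves, and neither can be told apart from group. Laboratory codes in the run records place myoblast array 1 in one consecutive series with the 3 myotube arrays, and myoblast arrays 2 and 3 in another. Between myoblast arrays 2 and 3 the log2 values of all probe sets had a Pearson's r of 0.988, a description across probe sets that are no replicates, against 0.889 to 0.912 for the other pairs within a group. Myotube array 3 had an r of 0.903 and 0.908 with the other myotube arrays, against 0.9196 and 0.9236 with myoblast arrays 2 and 3. Whether myoblast arrays 2 and 3 are separate samples is not stated, so n may be 2 in myoblasts. With them averaged as 1 sample TTN, NEB and MYBPH were still called, with log2 changes of 1.84, 2.02 and 2.60 (limma adjusted p from 0.00594 to 0.0206). Myoblast array 1 was the highest of the myoblast arrays for 14 of the 18 probe sets described here and for 53.5% of all probe sets. Results are therefore given with and without this series as a block. Since the second series holds only myoblast arrays, a blocked change is that of the 3 myotube arrays against myoblast array 1 alone, and its error takes in the spread between myoblast arrays 2 and 3.

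Mouse promoter windows of the genes, from RefSeq on GRCm38.p6, run from 250 bases before to 50 after an annotated start. By symbol they matched 8 of the 10 genes; Neb and Tcap were not matched. Those of Ttn and Mybph are shown because these are the called genes with a window. Capitals mark matches, on either strand, to the E box CANNTG, the core bound by MyoD family factors, and to the MEF2 site, which binds MEF2 factors. The CArG box, bound by serum response factor, was searched too and matched in neither; 1.63% of all windows hold it. Sequences are the mouse reference, not read from these samples.
Ttn (chr2:76982498-76982797, minus strand): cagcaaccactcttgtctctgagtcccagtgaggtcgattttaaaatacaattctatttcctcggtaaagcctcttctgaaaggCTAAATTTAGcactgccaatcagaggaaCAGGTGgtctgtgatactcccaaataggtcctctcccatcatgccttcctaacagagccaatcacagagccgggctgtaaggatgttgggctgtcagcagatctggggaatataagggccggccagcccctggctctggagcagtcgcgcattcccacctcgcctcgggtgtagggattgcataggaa
Mybph (chr1:134193198-134193497, plus strand): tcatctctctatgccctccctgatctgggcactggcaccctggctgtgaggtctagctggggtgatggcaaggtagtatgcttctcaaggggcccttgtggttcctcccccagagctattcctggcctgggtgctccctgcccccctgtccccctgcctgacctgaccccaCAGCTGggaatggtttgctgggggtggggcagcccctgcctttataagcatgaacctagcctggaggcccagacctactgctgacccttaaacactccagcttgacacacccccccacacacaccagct
In Ttn the MEF2 site begins at position -166 and the E box at -138 from the start. In Mybph the 1 E box, at -79, reads CAGCTG. Of 32851 windows of this length, 72.3% hold CANNTG, 16.3% hold CAGCTG and 3.19% hold a MEF2 site. CAGCTG is itself a CANNTG. It was also present in the windows of Pdlim3 and Mybpc1. A match is a description of these letters only.

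The comparison asks which of these transcripts differ in level in myotubes, set against myoblasts. Tests used limma on log2(signal + 197), adjusted over all 13300 probe sets whose mean signal was at or above the 40th percentile, with an adjusted p below 0.05 called. Of the 18 probe sets, 6 passed that filter and 12 did not. Of the 6 tested, 3 were called higher in myotubes and 0 lower, where 4.95% of all tested probe sets were called higher and 6.43% lower. At an unadjusted p under 0.05, 4 of the 6 were higher and 0 lower, against 15.4% and 14.8% of all tested probe sets. Their median log2 change was 1.62, against 0.09 over all tested probe sets. Over all 18 without the filter it was 0.81, against 0.19 over all probe sets. The filter uses the mean over all arrays, and 4 of the 6, those of MYBPH, NEB, ACTN2 and LDB3, had a myoblast mean under it and passed only through their myotube signals, so the count and median of the 6 do not speak for all 18.

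**Figure D1:**
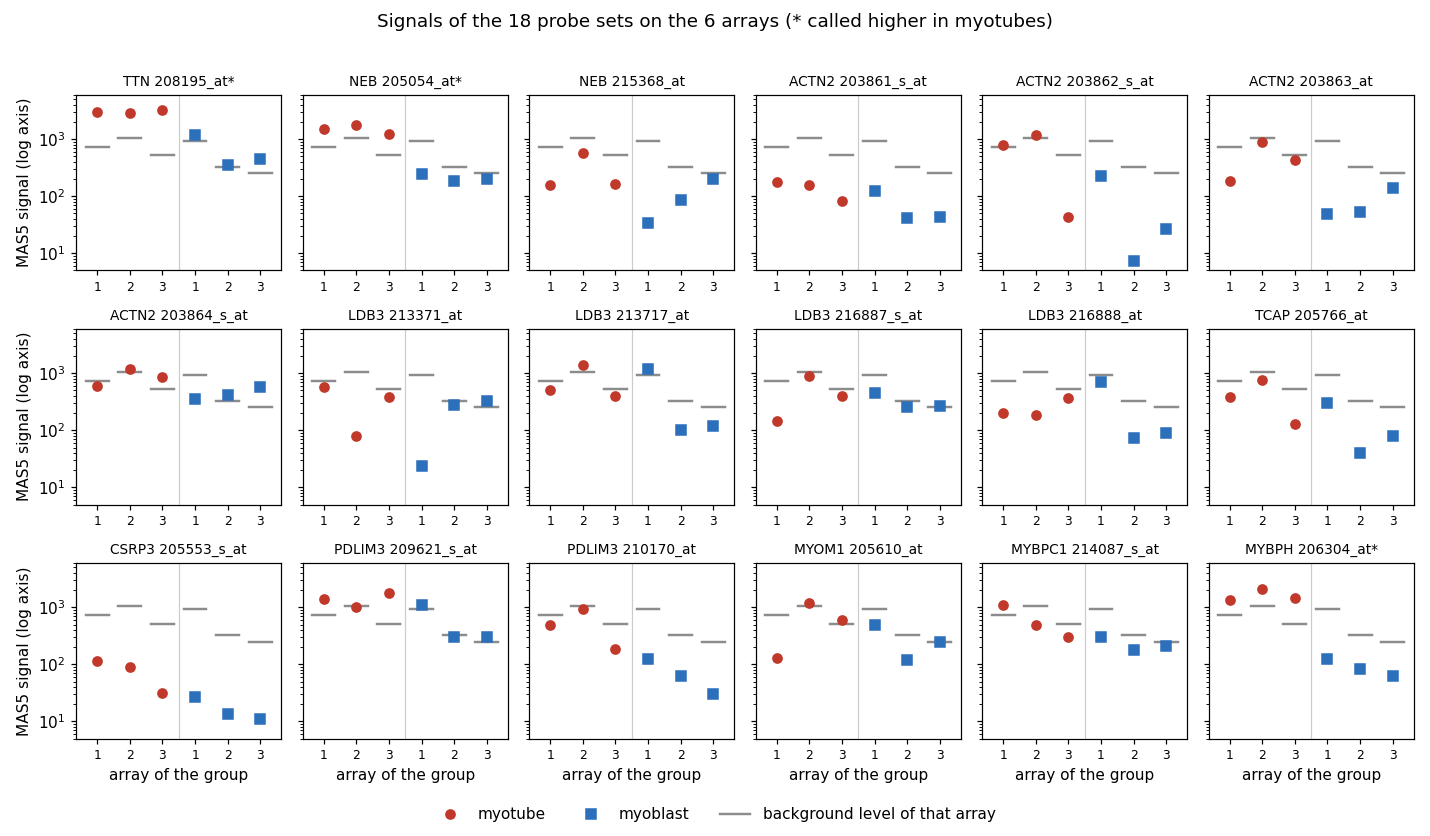
MAS5 signal (log axis) of each of the 18 probe sets on myotube arrays 1 to 3 (circles, left) and myoblast arrays 1 to 3 (squares, right), with the background level of each array as a grey bar. TTN, NEB 205054_at and MYBPH stand above background on every myotube array; most other probe sets lie near or below it.

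TTN encodes titin, the elastic filament that keeps the thick filament centred in the sarcomere. Its only probe set, 208195_at, gave 2991, 2822 and 3298 on myotube arrays 1, 2 and 3, against 1169, 357 and 450 on myoblast arrays 1, 2 and 3. All myotube values lay above all myoblast values and above background, and myoblast array 1 was the highest of its group. TTN rose 4.10-fold (log2 2.03 ± 0.34 SE, 95% interval 1.28 to 2.79, limma adjusted p = 0.00556). In bulk RNA, here and below, fewer cells of a type and less RNA per cell cannot be told apart. Blocked on laboratory series, the change was 1.24 ± 0.29 and was not called (limma adjusted p = 0.0698).

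NEB encodes nebulin, which runs along the skeletal muscle thin filament and helps set its length. Its probe set 205054_at gave 1500, 1754 and 1215 on myotube arrays 1, 2 and 3, against 245, 183 and 198 on myoblast arrays 1, 2 and 3. The groups did not overlap, the myotube signals were above background on all 3 arrays, and the myoblast signals on none. NEB rose, with plain signals at least 3.49-fold higher in myotubes against the background level of the myoblast arrays. Its log2 change of 2.05 ± 0.34 SE (limma adjusted p = 0.00514) depends in size on the added constant and was 2.57 with a constant of 49 and 1.19 with one of 788. Blocked on laboratory series, the change was 1.92 ± 0.43, close in size but not called (limma adjusted p = 0.0585).

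A second NEB probe set, 215368_at, was too dim to be tested. It gave 155, 568 and 163 in myotubes, against 34.2, 86.0 and 199 in myoblasts. These values overlapped and none was above background, so this probe set gives no second reading of the NEB change.

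MYBPH encodes myosin-binding protein H, a small relative of the myosin-binding protein C family found in the thick filament. Its only probe set, 206304_at, gave 1366, 2057 and 1450 on myotube arrays 1, 2 and 3, against 127, 84.3 and 61.6 on myoblast arrays 1, 2 and 3. Every myotube value was above background and every myoblast value below it, with no overlap. MYBPH rose, by at least 3.78-fold against the background level of the myoblast arrays. Its log2 change of 2.65 ± 0.37 SE (limma adjusted p = 0.00236) depends in size on the added constant and was 3.58 with a constant of 49 and 1.45 with one of 788. Of the 3 called genes it alone was called with the laboratory series as a block, at 2.47 ± 0.48 (limma adjusted p = 0.0381), where 1.54% of all tested probe sets were called higher; the difference between MYBPH and the other 2 genes was not tested. That call, too, sets the myotubes against 1 myoblast array.

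MYBPC1 encodes the slow skeletal form of myosin-binding protein C, which braces the thick filament and tunes cross-bridges. Its probe set did not pass the filter. It gave 1121, 497 and 301 in myotubes, against 307, 181 and 214 in myoblasts. Only myotube array 1 lay above its background, and the lowest myotube value lay just under the highest myoblast value.

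ACTN2 encodes the muscle alpha-actinin that cross-links thin filaments in the Z disc. Its brightest probe set, 203864_s_at, gave 601, 1202 and 860 in myotubes, against 353, 411 and 575 in myoblasts. The groups did not overlap, though the gap between the nearest values was small. Array 1 of each group was below background, and the lowest myotube value is that of myotube array 1. The log2 change of 0.73 ± 0.36 SE (95% interval -0.08 to 1.54) was not called (limma adjusted p = 0.203), and an interval reaching 1.54 includes changes of well over 2-fold.

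The other 3 ACTN2 probe sets were not tested. Probe set 203862_s_at gave 785, 1160 and 42.6 in myotubes, against 231, 7.40 and 26.3 in myoblasts, so myotube array 3 lay far from the other 2. Probe set 203863_at gave 182, 878 and 436 in myotubes, against 49.7, 53.6 and 139 in myoblasts, without overlap but never above background. Probe set 203861_s_at stayed between 82.5 and 177 in myotubes, and between 41.1 and 125 in myoblasts.

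LDB3 encodes ZASP, or Cypher, a PDZ and LIM protein that binds alpha-actinin at the Z disc, and its 4 probe sets did not separate the groups. The tested one, 213717_at, gave 519, 1404 and 405 in myotubes, against 1166, 99.9 and 119 in myoblasts. Myoblast array 1 lay within the range of the myotube arrays and far above the other myoblast arrays. Only myotube array 2 and myoblast array 1 were above background. The log2 change was 0.81 ± 0.63 SE (limma adjusted p = 0.403). Blocked on laboratory series, it was -0.63 ± 0.64 (limma adjusted p = 0.691), so its direction depends on myoblast arrays 2 and 3. The other 3 probe sets overlapped between groups and lay between 78.4 and 896 in myotubes, and between 23.5 and 711 in myoblasts.

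PDLIM3 encodes ALP, the actinin-associated LIM protein, another PDZ and LIM partner of alpha-actinin. Probe set 209621_s_at gave 1422, 1021 and 1775 in myotubes, against 1109, 298 and 302 in myoblasts. Only myoblast array 1 overlapped the myotube range. The log2 change of 1.20 ± 0.42 SE was not called (limma adjusted p = 0.0924). It was 1.66 and called without myoblast array 1 (limma adjusted p = 0.00839). In the fit blocked on laboratory series it was 0.27 ± 0.40 (limma adjusted p = 0.798). The second probe set, 210170_at, gave 481, 918 and 184 in myotubes, against 122, 62.1 and 29.7 in myoblasts, with no overlap but below background on every array.

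TCAP encodes telethonin, which caps the titin N terminus in the Z disc. It gave 381, 748 and 131 in myotubes, against 303, 40.7 and 80.8 in myoblasts, below background on every array. CSRP3 encodes the muscle LIM protein, a Z disc protein best known from heart. It gave 116, 89.3 and 31.8 in myotubes, against 26.5, 13.4 and 10.96 in myoblasts. The CSRP3 groups did not overlap, but no signal was above background on any array.

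MYOM1 encodes myomesin, which cross-links myosin and titin in the M band. It gave 127, 1192 and 606 in myotubes, against 499, 118 and 247 in myoblasts. Its mean lay just under the filter. Myotube arrays 2 and 3 were above background and myotube array 1 was among the myoblast values.

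**Figure D2:**
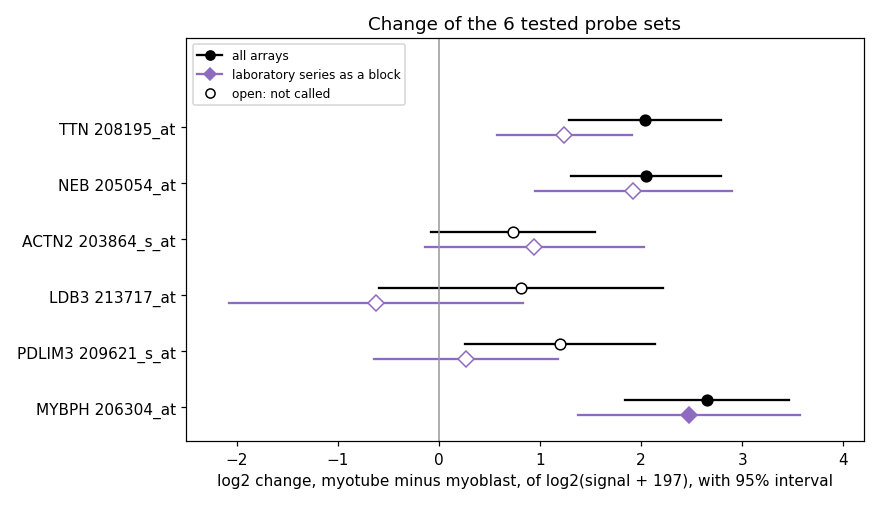
Log2 change, myotube minus myoblast, with 95% interval, of the 6 tested probe sets in the fit of all arrays (circles) and in that with laboratory series as a block (diamonds); open symbols were not called. Only MYBPH is filled in both fits, and LDB3 lies at 0.81 and at -0.63.

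When limma was run without the filter, over 22167 probe sets, 0 of the 12 dim probe sets were called (adjusted p from 0.0969 for PDLIM3 210170_at to 0.914 for LDB3 216888_at), and 3 had an unadjusted p under 0.05. In that fit the 3 called genes were called again, where 2.49% of all probe sets were called higher. All 12 dim probe sets had a positive log2 change, LDB3 216888_at included although its mean plain signal was lower in myotubes (250.5, against 290.9 in myoblasts). Their median was 0.63, against 0.19 over all probe sets and 0.09 over those that passed the filter. Dim probe sets as a whole thus lay higher in myotubes too. Neither their own median nor their share of positive changes was computed. The background level was higher on the myotube arrays than on myoblast arrays 2 and 3, and its part was not tested. Across all 18 probe sets, the 3 myotube values lay wholly above the 3 myoblast values in 7 and wholly below in 0, and overlapped in 11. The first pattern was found in 17.1% of all probe sets, and in 17.5% of those that passed the filter, where 4 of the 6 tested here showed it. Of these 4, those of NEB, ACTN2 and MYBPH passed the filter only through their myotube signals. The 4 of 6 is thus no separate support. On any array 7 of the 18 probe sets were never above background.

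**Figure D3:**
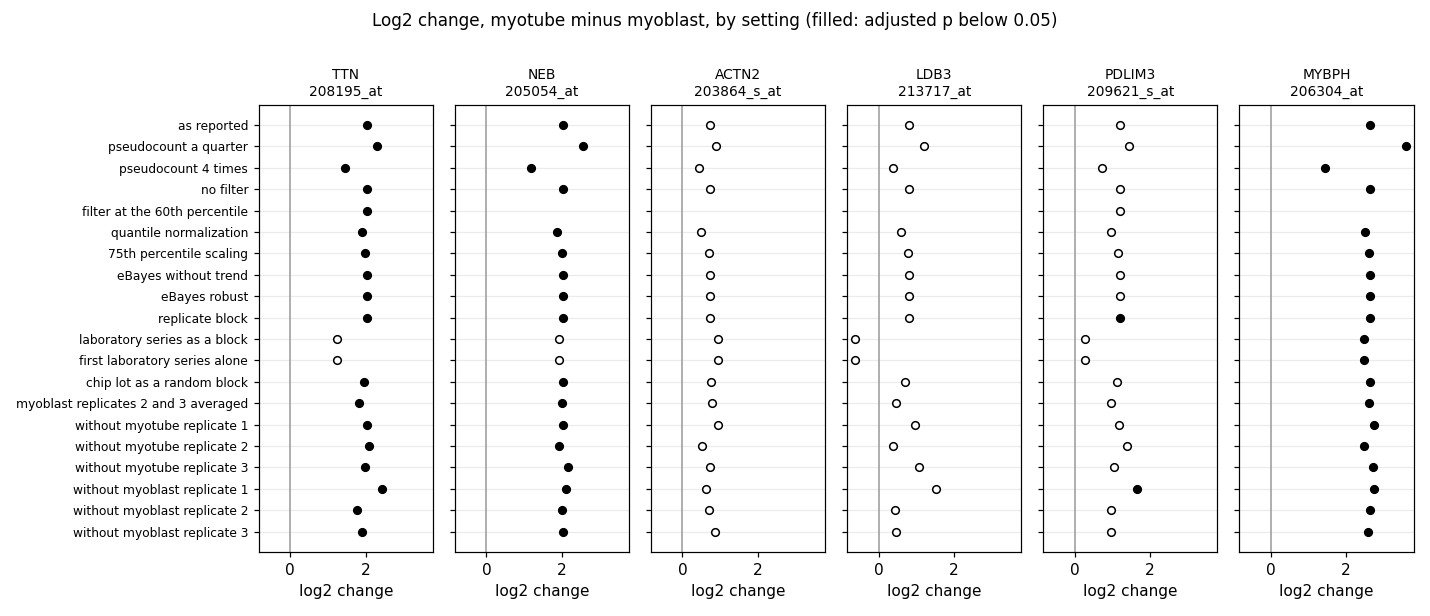
Log2 change, myotube minus myoblast, of the 6 tested probe sets (columns) under each processing setting (rows); filled points had an adjusted p below 0.05. MYBPH is filled in every setting where it was tested, TTN and NEB in all but the 2 that use the laboratory series, and LDB3 crosses 0 in those 2.

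Other sarcomere genes were counted by gene, each through its brightest probe set, in 5 lists with 94 symbols, of which 67 were on the array and 52 were tested. Of the 52, 15 were called higher and 3 lower, with a median log2 change of 0.67. Over all 8148 genes tested 5.89% were called higher and 7.12% lower, with a median of 0.12. Counted in the same way, 3 of the 6 tested genes of titin, nebulin, Z disc and M band were called higher. In both counts some genes dim in myoblasts passed the filter only through their myotube signals. Both sets of genes were chosen with earlier results of these data known.

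The called genes of these lists lay mostly among the contractile proteins. Of 17 tested sarcomeric myosins, actins, troponins and tropomyosins 12 rose and 5 did not pass (median log2 change 2.30). TNNI1, TNNC1, TNNT1, MYH3, ACTA1, TNNC2 and MYL1 had myoblast means under the filter and passed it only through their myotube signals. So did MYH7, MYH8, MYL2 and MYL3, which were not called. The count and median therefore do not speak for all 22 genes of this list on the array. The slow troponin genes TNNI1 and TNNC1 rose by log2 3.98 ± 0.30 SE and 3.67 ± 0.33, at least 9.16-fold and 6.69-fold by the background bound, and the light chain gene MYL4 by 2.76 ± 0.25 (limma adjusted p of 2.64e-04 or less). These 3 stayed called in all 20 other settings. MYH3, ACTC1, MYL1 and MYL11 did too, and TNNT1 in all 19 that tested it. TNNC2 was called in 19 of 20, ACTA1 in 18, TNNT3 in 12 and TPM2 in only 8. Of 19 other Z disc genes 1 rose and 2 fell (median -0.04).

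The Z disc gene that rose was CRYAB, a small heat shock protein of the Z disc, with a log2 change of 0.75 ± 0.17 SE (limma adjusted p = 0.0173). The 2 that fell were BAG3, a co-chaperone, with -0.93 ± 0.19 (limma adjusted p = 0.0113), and CAPZA1, an actin capping subunit not specific to muscle, with -1.12 ± 0.24 (limma adjusted p = 0.0141). Calls of CRYAB and BAG3 were lost on leaving out any of 4 and 3 arrays (limma adjusted p up to 0.103 and 0.0598). That of CAPZA1 was lost without myotube array 2 (0.0710). All 3 were lost with the laboratory series as a block (limma adjusted p from 0.149 to 0.217).

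Of 8 tested genes linked to the M band or titin, 2 rose and 1 fell (median 0.61). SQSTM1, the autophagy receptor p62, rose by 1.20 ± 0.17 SE (limma adjusted p = 0.00285) and was called in all 20 other settings. OBSL1, an obscurin relative that binds titin and myomesin, rose by 1.08 ± 0.31 (limma adjusted p = 0.0439), but was called in only 8 of 20 other settings. ANKRD1, which binds the N2A region of titin, fell by 1.72 on the log2 scale (limma adjusted p = 0.0183). It gave 93.2, 103 and 199 in myotubes, all below background, against 976, 780 and 886 in myoblasts, at least 1.19-fold lower by the bound. The ANKRD1 call was lost without myoblast array 2 or 3 (limma adjusted p of 0.0996 and 0.123). Its log2 change was -1.79 and -1.72 in those fits. Blocked on laboratory series it was -1.85 and likewise not called (limma adjusted p = 0.111).

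None of 5 nebulin relatives and thin filament length genes and none of 4 myosin assembly genes was called by limma with all arrays, their medians being 0.75 and 0.10. At an unadjusted p under 0.05, 1 of the 5 was lower and 1 of the 4 higher. NEBL, NRAP and LASP1 share nebulin repeats with NEB and were named after their values were seen. NEBL and NRAP had log2 changes of 0.84 ± 0.45 SE and 0.87 ± 0.52 (limma adjusted p of 0.217 and 0.272), and LASP1 had one of the other sign, -0.48 ± 0.19 (limma adjusted p = 0.110).

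**Figure D4:**
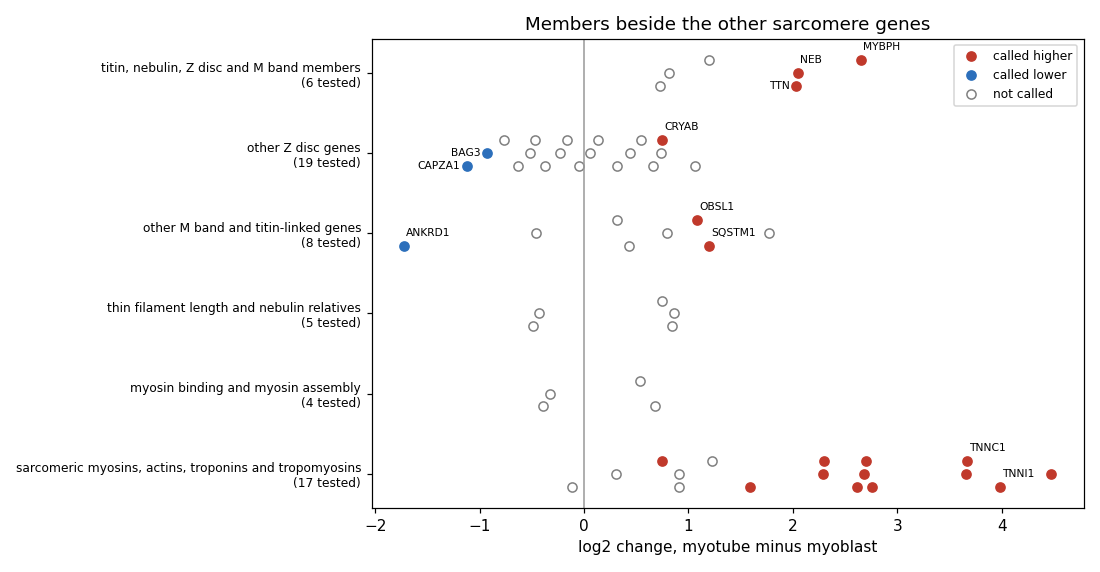
Log2 change, myotube minus myoblast, of the tested titin, nebulin, Z disc and M band members (top row) and of tested genes of 5 other sarcomere lists; filled points were called higher (red) or lower (blue), open points were not called, and points are spread vertically for visibility only. MYBPH, NEB and TTN lie among the called myosins, actins and troponins at the bottom. The members ACTN2, LDB3 and PDLIM3 were not called. The other Z disc genes spread to both sides of 0, from -1.12 to 1.06, with a median of -0.04.

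Markers of the labelled cells were read beside these results. Of 8 skeletal muscle markers 4 of 6 tested rose. The summed signal of the 8 was 12903 to 14840 in myotubes, against 896 to 4482 in myoblasts. The 4 were MYH3, ACTA1, TNNT1 and TNNI1, already counted among the contractile genes above. They passed the filter only through their myotube signals, so they are no separate support. DES and CHRNA1 were tested and not called (log2 0.20 and 1.26, limma adjusted p of 0.855 and 0.104). MYOG, the myogenin gene, and CKM, muscle creatine kinase, were not above background on any array. Of 6 markers of dividing cells 5 fell, summing to 3779 to 6025 in myotubes, against 25656 to 28978 in myoblasts. Markers of other cells moved too. Of 10 fibroblast markers 9 rose, summing to 260189 to 374536 in myotubes, against 78966 to 138545 in myoblasts. Of 5 smooth muscle markers 3 of 4 tested rose and 1 fell, summing to 65330 to 73269 in myotubes, against 20858 to 38606 in myoblasts. MYH11, the smooth muscle myosin heavy chain, was not above background on any array. Cardiac markers, 2 of 6 tested and 0 called, summed to 1824 to 6469 in myotubes, against 724 to 3264 in myoblasts. Endothelial and blood markers, 1 of 3 tested and 0 called, summed to 1071 to 2147 in myotubes, against 613 to 987 in myoblasts. Of these 2 lists, MYH6, NPPB, MYL7, RYR2, CDH5 and PTPRC were never above background. The part of these shifts in the changes of TTN, NEB and MYBPH was not tested.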

How the data were processed

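Signals of 22283 probe sets on 6 HG-U133A arrays were used as deposited. Each is an intensity on a linear scale that the authors had computed by MAS5, as the submitters' processing notes record, in a version no source used here states. Detection calls were not used. Titles, and for myoblast array 3 the description, gave the groups. Run records gave chip lot and laboratory code.

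Left out were 68 control probe sets and 48 of XIST and Y-linked genes. By the annotation of 2016, 19065 non-control probe sets have 1 symbol, while 1043 have several and 2107 have none. Values were log2(signal + 197), 197 being the 25th percentile of the table, so folds understate the change of dim genes. In R 4.3.3, limma 3.58.1 (lmFit, then eBayes with trend; two-sided tests; statmod 1.5.0) was fitted on all probe sets with a mean of at least 475, and again by gene, with p-values adjusted by Benjamini-Hochberg. The fit was tested on simulated data. Named genes were every member, and in the other lists up to 3 called genes per direction by adjusted p. Further contractile genes were named for the filter and for how often they stayed called. A bound sets the bright group's mean log2 signal against that of the dim group, with dim signals raised to background. Members and lists were chosen with earlier results of these data known. Alternatives covered pseudocount, filter, scaling, variance model, array number, chip lot and laboratory series as blocks, averaging of myoblast arrays 2 and 3, probe set averaging, and each array left out. Promoter windows came from RefSeq. Figures used matplotlib 3.10.9.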

Additional observations from a re-analysis of the deposited data

How the results depend on the processing

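Of the 10 genes, 3 were called higher in most settings, by probe set and by brightest probe set alike. The exceptions were 1 with the filter at the 60th percentile, where only 2 of the 18 probe sets are tested (TTN called), 1 with the laboratory series as a block and 1 in the first series alone, MYBPH in both. PDLIM3 was called as well with the replicate block, without myoblast array 1, and when a gene's probe sets were averaged (log2 1.26, limma adjusted p = 0.0336). Leaving out each array gave 3 to 4 member probe sets and 3 to 4 member genes, 11 to 19 other sarcomere genes (15 with all arrays), and 493 to 3469 of all probe sets (1513 with all arrays). The count of all probe sets was 919 without trend, 401 with chip lot as a random block, 338 with the laboratory series as a block, 174 in the first series alone, 576 with myoblast arrays 2 and 3 averaged, and 2313 with the replicate block. In the first series alone, which takes the spread of its 1 myoblast array from the myotubes, 9 other sarcomere genes were called higher. The LDB3 change was -0.63 with the series as a block and in that series alone. The cause was not tested. Array numbers were not taken as pairs: deviations of same-numbered arrays correlated between -0.15 and 0.31. MYBPH was called in all 18 other settings that tested it (log2 1.45 to 3.58), TTN in 17 of 19 (1.24 to 2.43) and NEB in 16 of 18 (1.19 to 2.57). ACTN2 and LDB3 were called in none. Background limits what 7 of the 18 probe sets, never above it, can show.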
